A study of Mus musculus with 16 samples.

Results

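Proteasome genes were followed in quadriceps muscle of mice carrying the C26 colon carcinoma. The 43 genes described here are all symbols in the count table that begin with Psma to Psmg and a digit, apart from the interferon-inducible Psmb8, Psmb9, Psmb10, Psme1 and Psme2. The table held 13320 genes in all. The symbols gave 7 alpha-ring and 7 beta-ring subunits of the core, 6 ATPases of the cap, 11 non-ATPase cap subunits, 3 regulators and 7 assembly chaperones. Psmc3ip, a meiotic recombination factor, and Psme2b, a copy resembling Psme2, carry such symbols but encode neither a subunit nor a chaperone.

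All animals were male CD2F1 mice aged 8 weeks at the start, and quadriceps RNA of 16 samples was sequenced, 4 in each group. Splenic C26 mice received tumour cells into the spleen, a route that seeds the liver, and sham mice had the operation with saline. Subcutaneous C26 mice received the cells under the skin, and what control mice received is not given. Whether each sample came from its own animal is not stated. The p-values therefore reflect variation among the sequenced samples, possibly of technical origin. Sham and splenic C26 samples shared one title prefix and the other groups another, so route of injection and prefix cannot be told apart.

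The proteasome degrades proteins tagged with ubiquitin. Its core is a stack of alpha and beta rings; the beta subunits encoded by Psmb5, Psmb6 and Psmb7 carry the proteolytic sites, and the alpha rings gate the entrance. The cap binds ubiquitin chains, removes them and unfolds the substrate with a ring of ATPases. In wasting muscle, ubiquitin-dependent proteolysis of contractile proteins is a well-known route of protein loss, and higher messenger RNA of proteasome subunits is among its textbook markers.

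Libraries held 25.9 to 34.9 M gene counts. The 12 muscle-fibre markers checked were all present, with summed levels of 204746 to 259776 CPM, counts scaled to a fixed library total, in splenic C26 and 157948 to 227774 CPM in sham, and of 160762 to 352541 CPM in subcutaneous C26 and 166542 to 281412 CPM in control. Splenic C26 replicate 1 and subcutaneous C26 replicate 3 were intermediate, at -6.31 and 6.0 on the first principal component. The other tumour libraries lay at 64.6 to 93.3 and the tumour-free libraries at -60.8 to -55.4. Connective-tissue progenitor markers, 5 of 5 measured, summed to 362 to 1217 CPM in splenic C26 and 1410 to 1762 CPM in sham, and to 408 to 785 CPM in subcutaneous C26 and 1100 to 1981 CPM in control. Endothelial markers, 5 of 5 measured, summed to 227 to 419 CPM in splenic C26 and 257 to 314 CPM in sham, and to 184 to 241 CPM in subcutaneous C26 and 302 to 358 CPM in control. Neutrophil and marrow markers, 7 of 7 measured, reached 164 CPM in splenic C26 and 0.754 CPM in sham, and red-cell markers, 3 of 6 measured, reached 46.0 CPM in splenic C26 and 5.72 CPM in sham. The neutrophil list reached 25.7 CPM in subcutaneous C26 and 45.7 CPM in control, and the red-cell list 131 CPM in subcutaneous C26 and 14.1 CPM in control. Hepatocyte markers, 8 of 8 measured, summed to 3.07 to 134 CPM in splenic C26 and 0.547 to 3.82 CPM in sham. They summed to 1.24 to 9.15 CPM in subcutaneous C26 and 32.4 to 251 CPM in control. The part of these cells in the proteasome results was not tested.

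In the 8 tumour-free libraries every structural subunit gene had a higher level than every assembly chaperone gene. Levels are compared between genes as CPM per kb of exon, with exon lengths from GENCODE M21. All 31 subunits lay between 15.4 CPM per kb for Psmd13 and 86.4 CPM per kb for Psma6, a 5.61-fold span. Psma6, an alpha-ring subunit, stood at 86.4 ± 3.58, the ATPase gene Psmc5 at 63.0 ± 4.81 and the cap subunit gene Psmd7 at 62.2 ± 3.98 CPM per kb (SD, n = 8). The last 2 of these did not differ beyond their spread. The order depends on the length used: with the longest transcript Psma6 was again highest, followed by Psmb6 at 96.2 and Psmd8 at 94.0 CPM per kb, and Psmc5 ranked 13. The 7 assembly chaperones were all below the lowest subunit, from 9.59 CPM per kb for Psmg2 to 1.43 ± 0.248 CPM per kb for Psmg3. Psme2b at 1.10 ± 0.156 and Psmc3ip at 0.612 ± 0.106 CPM per kb were the lowest of the 43. Of the regulators, Psme4, which encodes a nuclear core activator, stood at 48.8 and Psmf1, which encodes a core-binding inhibitor, at 2.85 CPM per kb.

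Splenic C26 muscle had more messenger RNA of every structural proteasome subunit than sham muscle, while most assembly chaperones did not pass the test. The 43 genes together took 0.847% ± 0.221 of all gene counts in splenic C26 and 0.400% ± 0.0117 in sham (SD, n = 4 each). With edgeR's quasi-likelihood test and Benjamini-Hochberg adjustment over all genes, 35 of the 43 were higher in splenic C26, 0 were lower and 8 did not pass. Of all genes tested, 28.1% were higher and 23.9% lower. At an unadjusted p under 0.05 the number lower was also 0 (3742 of all 13320 genes), as it was with DESeq2, limma-voom and limma-trend. The median log2 fold change was 1.11 over the 43 genes and 1.26 over the 31 subunits, against -0.03 over all genes. In 30 of the 43 every splenic C26 library lay above every sham library, which held for 21.1% of all genes. From whole muscle, more transcript per fibre and a different mix of cells cannot be told apart.

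**Figure D1:**
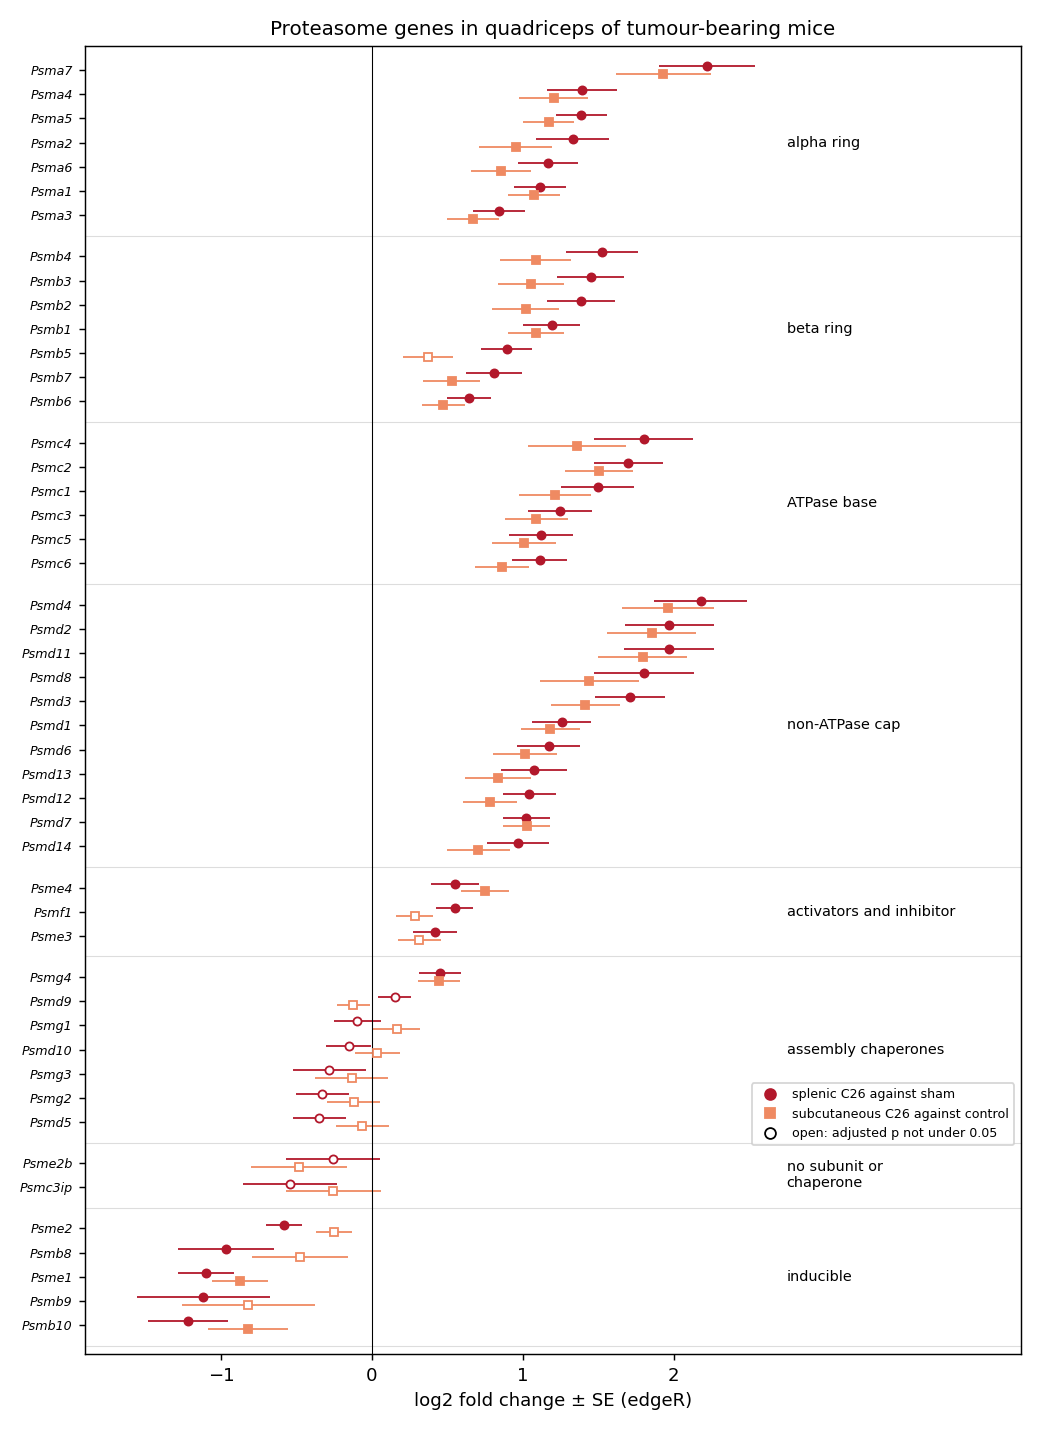
Log2 fold change with its SE (x axis, edgeR) of each proteasome gene, grouped by role, for splenic C26 against sham (red circles) and subcutaneous C26 against control (orange squares); open symbols have an adjusted p that is not under 0.05. The 31 structural subunits lie to the right of 0 in both comparisons, from 0.37 to 2.22, the chaperones lie around 0, and the inducible subunits lie to the left.

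The alpha ring rose as a whole in splenic C26, 7 of 7 genes with log2 fold changes of 0.84 to 2.22. Psma7, whose product is part of this ring, had 129.9, 384, 441 and 476 CPM in splenic C26, against 76.8, 73.7, 73.4 and 83.5 CPM in sham. Splenic C26 replicate 1 was the lowest tumour library and still lay above all sham libraries. The log2 fold change of Psma7 was 2.22 ± 0.32 (SE; edgeR adjusted p = 0.000157), the highest of the 43. Psma4 followed at 1.39 ± 0.23 and Psma5 at 1.39 ± 0.17, and Psma1 at 1.11 ± 0.17 and Psma3 at 0.84 ± 0.17 were the lowest of the ring. Psma3 had 88.8, 151.5, 183 and 183 CPM in splenic C26, against 87.7, 80.2, 88.9 and 82.2 CPM in sham, so splenic C26 replicate 1 lay among the sham libraries.

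In the beta ring the 3 genes of the proteolytic subunits rose less than the other 4. Psmb5 changed by 0.90 ± 0.17, Psmb7 by 0.81 ± 0.19 and Psmb6 by 0.64 ± 0.14 on the log2 scale, whereas Psmb1, Psmb2, Psmb3 and Psmb4 lay between 1.19 and 1.53. Psmb4 had 101.9, 207, 243 and 278 CPM in splenic C26, against 66.8, 70.7, 70.4 and 79.9 CPM in sham, and Psmb6 had 98.3, 150.1, 169 and 166 CPM in splenic C26, against 91.4, 87.5, 94.9 and 99.8 CPM in sham. For Psmb4 the groups were apart, and for Psmb6 replicate 1 of splenic C26 lay within the sham range. Psmb7 overlaps 405 exon bases of Nek6 on the opposite strand, and since the strand setting is not given their reads cannot be told apart. The difference between the 2 kinds of beta gene has no test of its own.

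The cap rose with the core. All 6 ATPase genes passed, from 1.11 ± 0.18 for Psmc6 and 1.12 ± 0.21 for Psmc5 to 1.70 ± 0.23 for Psmc2 and 1.80 ± 0.33 for Psmc4. Psmc2 had 196, 415, 423 and 447 CPM in splenic C26, against 110.3, 104, 115.5 and 125 CPM in sham, without overlap. All 11 non-ATPase cap genes passed as well, with Psmd4, which encodes a ubiquitin receptor, at 2.18 ± 0.31 and Psmd2, which encodes a scaffold that binds ubiquitin shuttles, at 1.97 ± 0.29 as the highest beside Psmd11 at 1.97 ± 0.30. Psmd4 had 175, 513, 593 and 577 CPM in splenic C26, against 105.8, 97.5, 98.6 and 108 CPM in sham. Psmd2 had 374, 1089, 1132 and 1092 CPM in splenic C26, against 243, 211, 231 and 255 CPM in sham. For both genes 3 splenic C26 libraries were far above sham and replicate 1 was only moderately above it. The lowest of the class were Psmd7 at 1.02 ± 0.16 and Psmd14, which encodes the deubiquitinase of the cap, at 0.97 ± 0.21 (adjusted p = 0.00177).

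**Figure D2:**
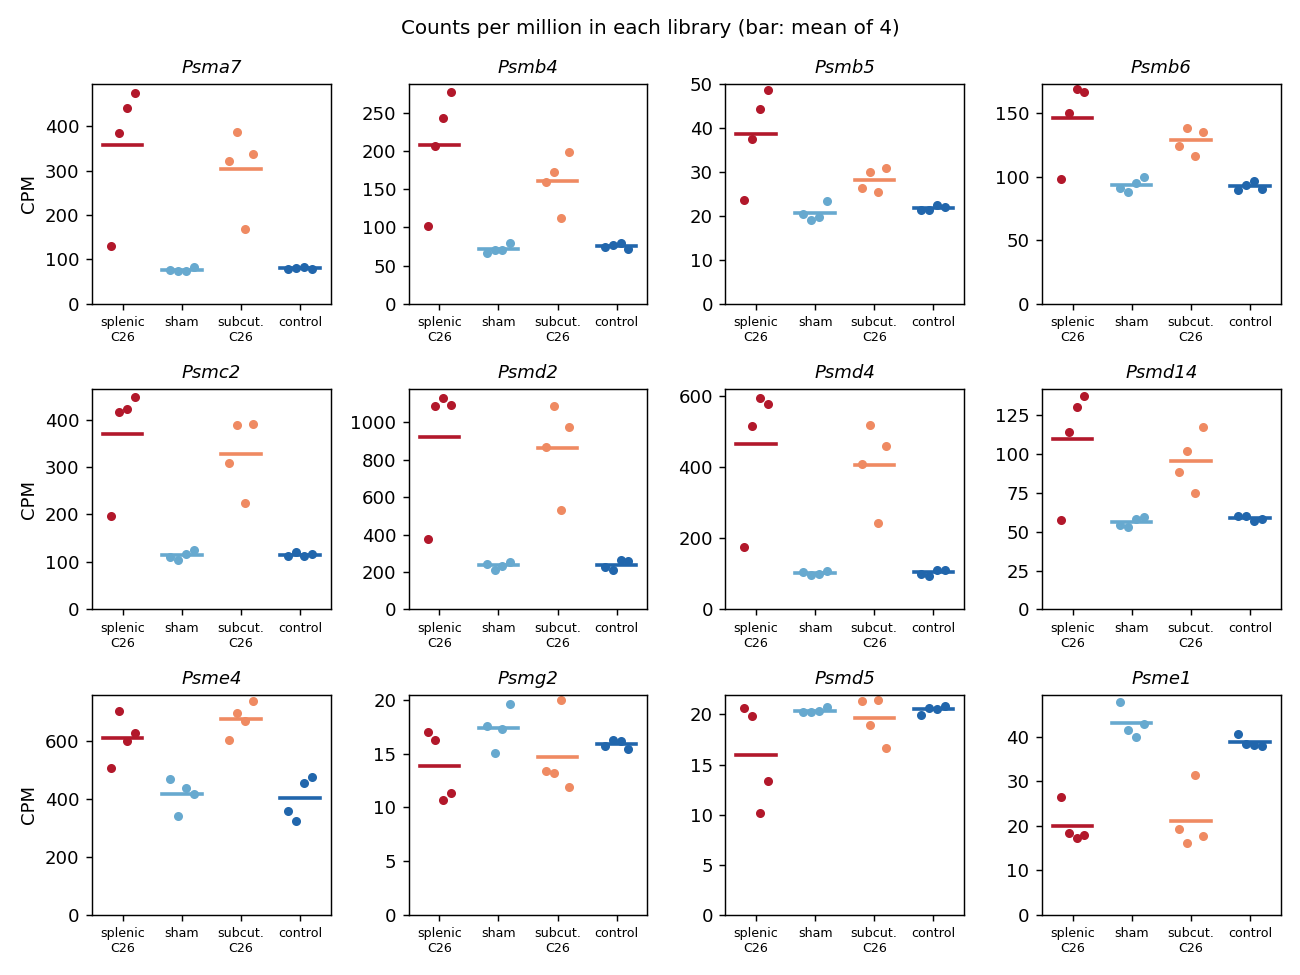
CPM in each library (y axis, linear from 0) of 12 proteasome genes in splenic C26, sham, subcutaneous C26 and control muscle; points are libraries and bars are means of 4. For Psma7, Psmd2 and Psmd4 the lowest tumour library of each route, splenic C26 replicate 1 and subcutaneous C26 replicate 3, lies between the tumour-free libraries and the other 3 tumour libraries, and Psme1 shows the reverse order.

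Regulators moved by less than the subunits in splenic C26, and of the chaperones only Psmg4 passed. Psme4 rose by 0.55 ± 0.16, Psmf1 by 0.55 ± 0.12 and Psme3, which encodes another nuclear core activator, by 0.42 ± 0.15 (adjusted p = 0.0259). The call of Psme3 was lost without sham replicate 2 (0.40, adjusted p = 0.0592), splenic C26 replicate 3 (0.33, adjusted p = 0.0844) or splenic C26 replicate 4 (0.36, adjusted p = 0.0764), and its adjusted p over all alternatives ran from 9.98e-05 to 0.174. Psmg4, part of a chaperone pair for alpha-ring assembly, rose by 0.45 ± 0.14 (adjusted p = 0.0135). In a fit of the splenic C26 and sham libraries alone Psmg4 did not pass (0.47, adjusted p = 0.0528; 0.00197 to 0.142 over all alternatives), nor did Psme3 (0.43, adjusted p = 0.0765). The partner of Psmg4, Psmg3, stood at -0.28 ± 0.24, and the pair Psmg1 and Psmg2, which also acts on the alpha ring, at -0.10 ± 0.16 and -0.33 ± 0.18. The chaperones of the ATPase ring stood at 0.15 ± 0.11 for Psmd9, -0.15 ± 0.15 for Psmd10 and -0.35 ± 0.18 for Psmd5. Psmc3ip at -0.54 ± 0.31 and Psme2b at -0.26 ± 0.31 did not pass either.

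For the chaperone genes Psmd5 and Psmg2 the splenic C26 libraries were split. Psmd5 had 20.7, 19.8, 10.1 and 13.4 CPM in splenic C26, against 20.2, 20.2, 20.4 and 20.7 CPM in sham. Psmg2 had 17.0, 16.3, 10.7 and 11.4 CPM in splenic C26, against 17.6, 15.1, 17.3 and 19.7 CPM in sham. In both genes replicates 3 and 4 were the lowest of all 8 libraries, whereas replicate 1 lay within the sham range; replicate 2 lay within it for Psmg2 and just under it for Psmd5. Without splenic C26 replicate 1, Psmd5 was called lower (-0.49, adjusted p = 0.0211; 0.0178 to 0.298 over all alternatives), as was Psmg2 (-0.43, adjusted p = 0.0413; 0.0114 to 0.315), and Psmd9 was called higher (0.24, adjusted p = 0.0453; 0.0388 to 0.583). Without splenic C26 replicate 2, Psmd5 was also called lower (-0.47, adjusted p = 0.0464). With splenic C26 replicate 1 and subcutaneous C26 replicate 3 both left out, 36 of the 43 genes were higher and 3 lower (Psmd5, Psmg2 and Psmc3ip). This omission was chosen after seeing the data. In the fit of all libraries 28.1% of all genes were higher and 23.9% lower.

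Promoters of 34 of the 41 subunits, regulators and chaperones were found in RefSeq (GRCm38.p6). They were searched over 250 bases before the start, on both strands. Psmc3ip and Psme2b were not looked up. These promoters are shown because the structural subunits, 25 of the 34, moved together, and a match describes letters and no binding. The rest belonged to regulators and chaperones, and most chaperones did not pass. The core recognised by ETS factors, CCGGAAG, was in 11 of 34 (32.4%), against 7.05% of all 27025 promoters. All promoters here were neither limited to measured genes nor matched for base composition. Whether any such contrast is particular to proteasome genes was not tested. The palindrome of the respiratory factor NRF1, which is not the product of Nfe2l1, was in 6 (17.6%), against 3.86%. The antioxidant response element TGACNNNGC was in 5 (14.7%; all promoters 10.1%) and CCAAT in 12 (35.3%; all promoters 34.5%). CACGTG was in 3 (8.82%; all promoters 6.05%), the heat shock letters TTCNNGAA in 2 (5.88%; all promoters 7.10%) and the STAT letters TTCNNNGAA in 1 (2.94%; all promoters 7.18%). The forkhead core GTAAACA (all promoters 3.09%), TGACGTCA (1.62%) and the yeast proteasome element GGTGGCAAA (0.189%) were in 0 of the 34. The ETS core was present both in genes with large changes (Psmd2, Psmd4, Psmd11, Psmc2) and in the chaperone gene Psmg1, which did not pass in either tumour comparison, and the antioxidant letters were in Psmb5. The 130 bases before each of these starts follow, 5′ to 3′ on the gene's strand, with capitals marking CCGGAAG or its reverse complement, and in Psmb5 the antioxidant letters.
Psmd2 (chr16:20651522-20651651, plus strand): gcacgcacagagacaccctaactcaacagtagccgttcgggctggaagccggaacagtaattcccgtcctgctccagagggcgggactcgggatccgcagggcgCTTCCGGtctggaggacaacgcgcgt
Psmd4 (chr3:95042615-95042744, minus strand): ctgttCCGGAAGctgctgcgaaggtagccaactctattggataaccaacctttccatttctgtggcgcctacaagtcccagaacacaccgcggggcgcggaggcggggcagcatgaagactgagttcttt
Psmd11 (chr11:80428485-80428614, plus strand): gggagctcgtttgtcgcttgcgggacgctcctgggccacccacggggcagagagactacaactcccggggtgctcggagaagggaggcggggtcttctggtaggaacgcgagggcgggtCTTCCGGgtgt
Psmc2 (chr5:21785145-21785274, plus strand): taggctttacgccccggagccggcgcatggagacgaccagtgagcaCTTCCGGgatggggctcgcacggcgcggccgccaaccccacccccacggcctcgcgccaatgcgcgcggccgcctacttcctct
Psmb5 (chr14:54617996-54618125, minus strand): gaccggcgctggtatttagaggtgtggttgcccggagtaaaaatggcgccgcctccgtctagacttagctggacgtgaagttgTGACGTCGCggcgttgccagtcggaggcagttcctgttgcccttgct
Psmg1 (chr16:95990961-95991090, minus strand): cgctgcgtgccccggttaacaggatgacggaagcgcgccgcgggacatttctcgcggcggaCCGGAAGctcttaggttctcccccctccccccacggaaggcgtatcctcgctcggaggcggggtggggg

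Subcutaneous C26 muscle showed the same broad rise against control. Fold changes were smaller than in the splenic comparison for most genes, though the difference between the tumour effects passed for 0 of the 43. The 43 genes took 0.784% ± 0.194 of gene counts in subcutaneous C26 and 0.398% ± 0.0275 in control (SD, n = 4 each). In edgeR's quasi-likelihood test 32 of the 43 were higher in subcutaneous C26, 0 were lower and 11 did not pass, against 27.0% higher and 23.1% lower among all genes. The number lower was also 0 at an unadjusted p under 0.05 (3607 of all 13320 genes) and with DESeq2, limma-voom and limma-trend. The median log2 fold change was 0.96 over the 43 genes, 1.08 over the 31 subunits and -0.02 over all genes. The libraries of the groups did not overlap, with subcutaneous C26 higher, in 35 of the 43 (25.2% of all genes) and, with it lower, in 1, Psme2b (20.7% of all genes). Without the pair of intermediate tumour libraries 35 were higher and 0 lower.

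Of the 31 subunits 30 passed, and the exception was Psmb5, which encodes the chymotrypsin-like site of the core. Psmb5 had 26.3, 29.9, 25.4 and 30.9 CPM in subcutaneous C26, against 21.2, 21.2, 22.6 and 22.1 CPM in control. Every subcutaneous C26 library lay above every control library, but the log2 fold change was 0.37 ± 0.17 (adjusted p = 0.0771, edgeR). In a fit of these 8 libraries alone Psmb5 passed (0.37, adjusted p = 0.0130; 0.00286 to 0.442 over all alternatives). The other proteolytic genes passed narrowly, Psmb6 at 0.47 ± 0.14 (adjusted p = 0.0132) and Psmb7 at 0.53 ± 0.19 (adjusted p = 0.0285), while Psmb1 to Psmb4 lay between 1.02 and 1.09.

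Some of these calls were lost when a single library was left out. In Psmb6, Psmb7 and Psmd14 every subcutaneous C26 library lay above every control library. Psmb7 no longer passed without control replicate 1 (0.47, adjusted p = 0.0816) or 2 (0.49, adjusted p = 0.0752), or without subcutaneous C26 replicate 2 (0.48, adjusted p = 0.0777) or 4 (0.44, adjusted p = 0.0933), within a range of 0.000506 to 0.130 over all alternatives. Psmb6 no longer passed without subcutaneous C26 replicate 2 (0.40, adjusted p = 0.0580; 6.71e-05 to 0.0911 over all alternatives). Psmd14, at 0.70 ± 0.21 (adjusted p = 0.0116), no longer passed without subcutaneous C26 replicate 4 (0.57, adjusted p = 0.0528, the highest over all alternatives; the lowest was 8.04e-06).

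The other classes of subunit passed in full in subcutaneous C26. Psma7 led the alpha ring at 1.93 ± 0.32, followed by Psma4 at 1.21 ± 0.23, and Psma6 at 0.85 ± 0.20 and Psma3 at 0.67 ± 0.17 closed it. It had 323, 388, 168.5 and 336.5 CPM in subcutaneous C26, against 77.7, 80.7, 82.0 and 78.0 CPM in control, with replicate 3 of subcutaneous C26 the lowest of its group but above all controls. Among the ATPases Psmc2 at 1.51 ± 0.23 and Psmc4 at 1.36 ± 0.33 led, and Psmc5 at 1.01 ± 0.21 and Psmc6 at 0.86 ± 0.18 were lowest. Psmd4 at 1.96 ± 0.30 and Psmd2 at 1.85 ± 0.29 again led the non-ATPase cap genes, and Psmd12 stood at 0.78 ± 0.18. Psmd2 had 867, 1089, 532 and 973 CPM in subcutaneous C26, against 227, 209, 262 and 260.5 CPM in control, and the groups did not overlap.

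Of the regulators and chaperones, Psme4 and Psmg4 passed in subcutaneous C26. Psme4 rose by 0.75 ± 0.16 in subcutaneous C26 (adjusted p = 0.00174), whereas Psmf1 at 0.28 ± 0.12 (adjusted p = 0.0629) and Psme3 at 0.32 ± 0.15 (adjusted p = 0.0824) did not pass. In a fit of these 8 libraries alone Psmf1 (adjusted p = 0.0388; 0.0199 to 0.754 over all alternatives) and Psme3 (adjusted p = 0.0338; 0.00699 to 0.593) passed, as they did without the intermediate libraries. Every subcutaneous C26 library lay above every control library for Psmf1 and Psme3. Psme4 had 603, 696, 669 and 739 CPM in subcutaneous C26, against 358, 322, 454 and 477 CPM in control, without overlap. Psmg4 rose by 0.45 ± 0.14 (adjusted p = 0.0155), and without subcutaneous C26 replicate 2 it did not pass (0.37, adjusted p = 0.0723; 0.00447 to 0.204 over all alternatives). It had 5.19, 6.03, 5.76 and 5.26 CPM in subcutaneous C26, against 4.10, 4.44, 4.18 and 3.59 CPM in control, and all 4 tumour libraries were above the controls. The other 6 chaperones lay between -0.13 for Psmg3 and 0.16 for Psmg1, with Psmd9 at -0.12, Psmg2 at -0.12, Psmd5 at -0.06 and Psmd10 at 0.04. Psme2b at -0.48 ± 0.32 and Psmc3ip at -0.26 ± 0.31 did not pass. Psmd9 shares 1849 exon bases with a non-coding gene on the opposite strand, so its reads are uncertain.

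Subunit levels also differed between the tumour libraries. The mean log2 level of the 31 subunits over the tumour-free mean was 0.39, 1.39, 1.60 and 1.65 in splenic C26, against -0.03, -0.09, -0.01 and 0.07 in sham. It was 1.07, 1.32, 0.70 and 1.33 in subcutaneous C26, against -0.01, -0.02, 0.05 and 0.04 in control. The lowest tumour library of each route was thus the one that also lay nearest to the tumour-free libraries on the first principal component. The mean level of the 7 chaperones was -0.08 ± 0.14 in splenic C26 and 0.03 ± 0.06 in sham, and -0.01 ± 0.14 in subcutaneous C26 and -0.03 ± 0.03 in control (SD, n = 4 each). The regulators averaged 0.49 ± 0.25 in splenic C26 and 0.00 ± 0.09 in sham, and 0.45 ± 0.10 in subcutaneous C26 and 0.00 ± 0.12 in control.

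Genes of the family were also compared within libraries. The log2 level of each gene was set against the mean of the other structural subunits of the same library, a description with no test. For Psmd4 this ratio was 0.99 ± 0.27 in splenic C26 and 0.21 ± 0.05 in sham, and 1.04 ± 0.21 in subcutaneous C26 and 0.19 ± 0.09 in control (SD, n = 4 each). Psma7 was raised similarly, by 0.81 over sham and 0.80 over control. The proteolytic Psmb6 went the other way, at -0.62 ± 0.23 in splenic C26 and 0.07 ± 0.02 in sham, and at -0.62 ± 0.19 in subcutaneous C26 and 0.02 ± 0.05 in control. Psmb5 stood at -2.62 ± 0.16 in splenic C26 and -2.18 ± 0.08 in sham, and at -2.88 ± 0.18 in subcutaneous C26 and -2.13 ± 0.01 in control. For Psmd4, Psma7, Psmb6 and Psmb5 the tumour libraries and their tumour-free libraries did not overlap in this ratio. Of the 41 subunits, regulators and chaperones, 16 overlapped between splenic C26 and sham and 17 between subcutaneous C26 and control. The chaperones are part of this count, and the matching share over all genes was not computed. A gene whose own level stays the same falls in this ratio when the subunits rise, so the values of the chaperones are not given.

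The inducible subunits, which replace the proteolytic ones in the immunoproteasome and form an interferon-induced cap, changed in the opposite direction. All 5 were lower in splenic C26 (23.9% of all genes were), with Psmb10 at -1.22 ± 0.27, Psmb9 at -1.12 ± 0.44, Psme1 at -1.10 ± 0.19, Psmb8 at -0.97 ± 0.32 and Psme2 at -0.58 ± 0.12 (edgeR adjusted p = 0.000386 to 0.0445). In subcutaneous C26 2 of the 5 were lower (23.1% of all genes were), Psme1 at -0.88 ± 0.19 and Psmb10 at -0.82 ± 0.26, and Psmb9 at -0.82 ± 0.44, Psmb8 at -0.48 ± 0.32 and Psme2 at -0.25 ± 0.12 did not pass. Psme1 had 26.5, 18.5, 17.2 and 17.9 CPM in splenic C26, against 47.8, 41.6, 39.9 and 42.9 CPM in sham, and 19.4, 16.1, 31.3 and 17.7 CPM in subcutaneous C26, against 40.5, 38.4, 38.2 and 37.8 CPM in control. In Psme1 neither pair of groups overlapped, and the intermediate library of each tumour group was the highest. Psmb9 shares 212 exon bases with Tap1 on the opposite strand.

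Each inducible proteolytic subunit was also set against the one it replaces, as reads per 100 reads without correction for length. This ratio falls when the constitutive gene rises, even if the inducible gene stays the same. Its tests reuse the same libraries and are no separate support for a fall of the inducible genes. In subcutaneous C26 Psmb8 and Psmb9 by themselves did not pass. Psmb8 shares 498 exon bases with the antisense gene Gm20496 on the opposite strand. Psmb8 per 100 Psmb5 reads was 25.0, 6.82, 5.93 and 8.71 in splenic C26, against 22.5 to 55.7 in sham. Splenic C26 replicate 1 lay within the sham range and the other 3 below it. Over the 6 relations of this kind, exact two-sided permutation tests of 4 libraries against 4 can give no p below 0.0286. For Psmb8 per Psmb5 the exact permutation p was 0.0571 in splenic C26 against sham (adjusted p = 0.0685; log2 difference -1.83) and 0.0286 in subcutaneous C26 against control (adjusted p = 0.0429; log2 difference -0.82).

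Psmb10 per 100 Psmb7 reads was 1.60 ± 1.15 in splenic C26 and 5.52 ± 1.35 in sham, and 1.73 ± 0.82 in subcutaneous C26 and 4.32 ± 0.44 in control (SD, n = 4 each), with an exact permutation p of 0.0286 in both comparisons (adjusted p = 0.0429). It was lower in 4 of 4 tumour libraries of each route than in any of the matching tumour-free libraries. Psmb9 per 100 Psmb6 reads was 1.12 ± 0.999 in splenic C26 and 3.37 ± 2.07 in sham (exact permutation p = 0.0857, adjusted p = 0.0857). It was 1.07 ± 0.33 in subcutaneous C26 and 2.60 ± 0.75 in control (exact permutation p = 0.0286, adjusted p = 0.0429).

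**Figure D3:**
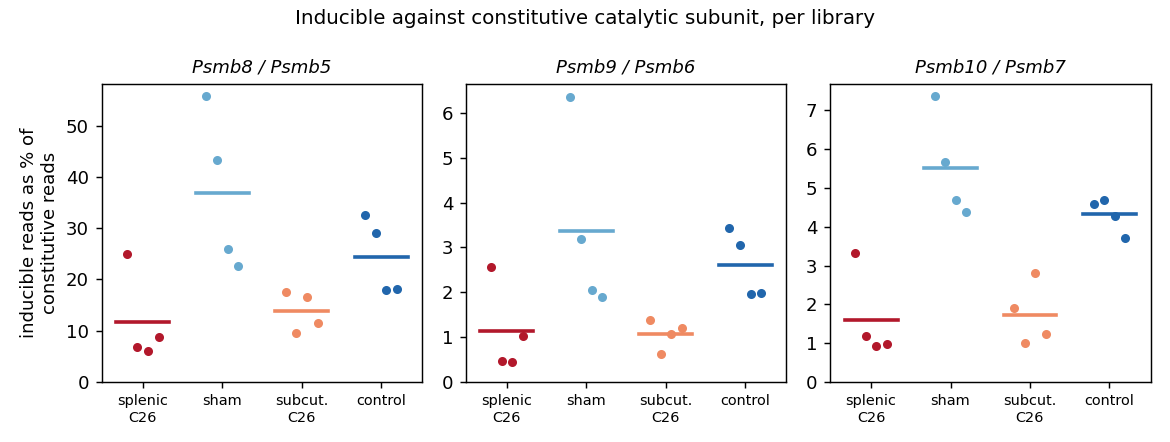
Reads of each inducible proteolytic subunit as a percentage of reads of the constitutive subunit it replaces (y axis, linear from 0), per library, for splenic C26, sham, subcutaneous C26 and control; bars are means of 4. The Psmb10 to Psmb7 ratio averages 1.60% in splenic C26 and 5.52% in sham, and 1.73% in subcutaneous C26 and 4.32% in control, and the splenic C26 library with the highest value is replicate 1 in each panel.

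Most listed genes around the proteasome were higher as well, though less uniformly. Of 41 such genes without a Psm symbol, 38 were measured. The list was chosen with earlier results of these data known, so its counts and medians are a description and no test. In splenic C26 27 were higher and 1 lower, where 28.1% of all genes were higher and 23.9% lower, and in subcutaneous C26 32 were higher and 2 lower, where 27.0% of all genes were higher and 23.1% lower. The median log2 fold change of the 38 was 0.91 in splenic C26 and 0.90 in subcutaneous C26, against -0.03 and -0.02 over all genes. The small Maf proteins, partners of the NRF transcription factors, included the largest changes, Maff at 4.31 ± 0.71 in splenic C26 and 3.72 ± 0.69 in subcutaneous C26 and Mafk at 3.20 ± 0.48 and 2.70 ± 0.47. The inflammatory transcription factor gene Stat3 stood at 2.5 ± 0.26 and 2.19 ± 0.26. Nfe2l1, whose product drives proteasome genes when proteasome activity is low, stood at 0.51 ± 0.19 in subcutaneous C26 (adjusted p = 0.0366; 0.00376 to 0.18 over all alternatives) and at 0.37 ± 0.19 in splenic C26 (adjusted p = 0.108; 0.0102 to 0.446), so that alternatives changed the call in both. The difference between these effects of Nfe2l1 did not pass (adjusted p = 0.98; 0.819 to 1). Its relative Nfe2l2, a regulator of antioxidant genes, rose by 0.98 ± 0.14 and 1.27 ± 0.14.

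Among proteins that bind or build the proteasome, Adrm1, which encodes a ubiquitin receptor of the cap, rose by 1.71 ± 0.25 in splenic C26 and 1.44 ± 0.25 in subcutaneous C26. Pomp, the chaperone of beta-ring assembly, stood at 0.50 ± 0.16 in splenic C26 (adjusted p = 0.018; 9.25e-06 to 0.0947 over all alternatives) and 0.40 ± 0.16 in subcutaneous C26 (adjusted p = 0.0475; 0.00047 to 0.301). Shfm1, a small cap component, stood at 0.03 ± 0.11 and -0.25 ± 0.11, and did not pass in either comparison. The 3 subunit genes of the CCAAT-binding complex NF-Y did not move together. Those that were lower were Nfyb at -0.90 ± 0.27 in splenic C26 and -0.66 ± 0.27 in subcutaneous C26 (adjusted p = 0.0497; 1.89e-05 to 0.11 over all alternatives), and Nfyc at -0.41 ± 0.14 in subcutaneous C26 (adjusted p = 0.0263; 0.0016 to 0.0593). Nfya was higher in subcutaneous C26 (0.78 ± 0.18, adjusted p = 0.00288; 6.13e-05 to 0.0335 over all alternatives) and stood at 0.13 ± 0.18 in splenic C26, where it did not pass. Nfyc at -0.22 ± 0.14 and the proteasome-bound ligase gene Ube3c at -0.11 ± 0.10 did not pass in splenic C26.

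The tumour routes were also set against each other directly. In splenic C26 against subcutaneous C26, 0 of the 43 genes passed in edgeR's quasi-likelihood test in either direction (0% of all genes). DESeq2, limma-voom and limma-trend also called 0 of the 43. In edgeR 1 of the 43 had an unadjusted p under 0.05, as had 1358 of all 13320 genes. That proteasome gene was Psmb5, at 0.45 ± 0.17 (edgeR adjusted p = 0.375). It had 23.7, 37.6, 44.4 and 48.6 CPM in splenic C26, against 26.3, 29.9, 25.4 and 30.9 CPM in subcutaneous C26. Splenic C26 replicates 2, 3 and 4 exceeded all subcutaneous C26 libraries and replicate 1 lay below them. No proteasome gene separated the routes without overlap, 0 of the 43 in either direction, against 1.14% of all genes higher and 0.833% lower in splenic C26. Without splenic C26 replicate 1, Psmb5 (0.65, adjusted p = 0.0219; 0.00989 to 0.998 over all alternatives) and Psmb3 (0.61, adjusted p = 0.0428; 0.0223 to 0.998) were called higher in splenic C26. Over omissions of single libraries, 0 to 215 of all genes were called higher and 0 to 92 lower. With both intermediate libraries left out 5 of the 43 were called higher, Psmb3, Psmb4, Psmb5, Psmc1 and Psmc4. Of all 13320 genes, 591 were called higher and 367 lower in that fit.

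The test of whether the effect of the tumour differed between routes called 0 of the 43 genes and 0% of all genes with edgeR, and 0 of the 43 with DESeq2, limma-voom and limma-trend. At an unadjusted p under 0.05 edgeR's test held 851 of all 13320 genes and 1 of the 43, Psmb5 (difference of log2 fold changes 0.52). With both intermediate libraries left out Psmb5 passed (0.65, adjusted p = 0.0411; 0.0411 to 1 over all alternatives). Of all genes, 167 were called higher and 90 lower in that fit. Across the 41 subunits, regulators and chaperones the log2 fold changes of the 2 comparisons had a Pearson r of 0.965, a description across genes that share their libraries. The change was larger in the splenic comparison for 34 of the 41. This is a count over genes that share their libraries and no test of the routes, and the matching share over all genes was not computed. The mean log2 level of the 31 subunits over the tumour-free mean was 1.256 ± 0.589 in splenic C26 and 1.106 ± 0.295 in subcutaneous C26 (SD, n = 4 each).

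No difference in proteasome genes was detected between sham and control muscle. In sham against control 0 of the 43 passed in edgeR, where 0% of all genes were higher and 0.00751% lower. An unadjusted edgeR p under 0.05 was found for 0 of the 43 and for 285 of all 13320 genes. DESeq2, limma-voom and limma-trend also called 0 of the 43. The log2 differences lay between -0.11 and 0.27, with a median of -0.02, and those of the 31 subunits between -0.11 and 0.04. The libraries did not overlap in 0 of the 43 with sham higher (2.46% of all genes) and in 1, Psma6, with sham lower (2.39% of all genes). Psma6 had 99.6, 103, 103 and 106 CPM in sham, against 108, 113, 110.4 and 109.7 CPM in control. The operation and the title prefix cannot be told apart in this comparison.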

How the data were processed

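Quadriceps RNA was sequenced as paired ends on an Illumina instrument, per the labels' protocols. The authors' deposited table of raw read counts per gene was made with STAR and featureCounts, per the labels; build mm10 and edgeR are named in the submitters' processing notes. No source at hand gives the annotation, the versions or the strand setting, and reads of overlapping or antisense genes may be mixed. A second deposited table held log2 values, which equalled log2 CPM up to 1 constant per gene and 1 per library (residual SD 0.0018 over 8287 genes) and served as an alternative. The 4013 lines without a gene symbol were left out, and filterByExpr removed 0 of 13320 genes.

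Groups came from the tumour label; replicate numbers follow accession order and pair nothing. The test was edgeR 4.0.16 in R 4.3.3 (TMM scaling, robust quasi-likelihood fitting, all 16 libraries with a mean for each group, Benjamini-Hochberg adjustment over all genes, threshold 0.05); the SE is the log2 fold change over the root of F. CPM use TMM library sizes, and log2 levels a prior count of 2. Library totals were 25.9 to 34.9 M; the most alike pair within a group had a chi-square of 12.9 per degree of freedom, and every library was counted once. Intervals from counting alone are not given, since the spread between libraries was larger. The fit was also run on simulated counts with 200 changed genes and no intermediate libraries. That setting differs from these data, and its outcome is not used here.

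The members, the list of genes around the proteasome and the marker lists were chosen with earlier results of these data known. Genes named with values were, per class and tumour comparison, the 2 highest and 2 lowest, every member that did not pass, the 3 highest and lowest levels per kb, and from the list of genes around the proteasome the 3 highest, the 3 lowest and all that were lower. Others (Nfe2l1, Nfe2l2, Adrm1, Pomp and the promoters printed) were added with their values in view. Alternatives were RLE and upper-quartile scaling, other filters and thresholds, DESeq2 1.42.0, limma 3.58.1 (voom, and trend on the log2 values), fits of the groups compared, omission of each library, and, chosen after seeing the data, omission of both intermediate tumour libraries or of 4 libraries with transcripts of other tissues (splenic C26 replicates 1 and 3, subcutaneous C26 replicate 4, control replicate 1). The other control libraries were kept, though every control library summed to at least 32.4 CPM of hepatocyte markers.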

Additional observations from a re-analysis of the deposited data

Results flagged for a closer look

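Each of 48 proteasome genes, the 5 inducible ones included, was examined in 4 groups for a library set far apart from the other 3 (its gap over the group's range above Dixon's 95% critical value), and 18 of 192 groups had one. For independent values about 1 in 20 would be flagged. These genes share their libraries, and the matching share over all genes was not computed. Splenic C26 replicate 1 was the library concerned in 8 of the 18. It was low for Psmc2 (196 CPM, the others 415 to 447), Psmc3 (196, the others 415 to 459), Psmc5 (97.6, the others 218 to 223), Psmd2 (374, the others 1089 to 1132), Psmd6 (114, the others 254 to 260) and Psmd7 (200 CPM, the others 310 to 317). In the same library the inducible genes were high, Psmb10 at 4.98 CPM (the others 2.91 to 3.21) and Psme1 at 26.5 CPM (the others 17.2 to 18.5).

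Subcutaneous C26 replicate 3 was high for the chaperones Psmg1 (8.95 CPM, the others 6.89 to 7.23) and Psmg3 (4.27, the others 3.22 to 3.30) and for Psmc3ip (1.45 CPM, the others 0.593 to 0.698). Sham replicate 2 was low for Psma4 (81.2 CPM, the others 89.7 to 90.5), Psmb7 (137, the others 154 to 157) and Psmd12 (97.3, the others 106 to 107), and high for Psme2b (1.16 CPM, the others 0.888 to 0.911). Sham replicate 3 was low for Psma5 (34.6 CPM, the others 37.6 to 37.8). In control, replicate 4 was low for Psmc3ip (0.745 CPM, the others 1.08 to 1.13) and replicate 1 high for Psmf1 (20.8 CPM, the others 18.0 to 18.3).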

How the results depend on the processing

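The 35 proteasome genes higher in splenic C26 numbered 31 to 36 over the alternatives run, and the 32 higher in subcutaneous C26 numbered 28 to 35. Of the fold changes of named genes recomputed under alternatives, 1123 kept direction and side of the threshold, 24 no longer passed, 18 newly passed and 7 changed sign; where no reason is given the cause was not tested. Upper-quartile scaling moved the median of all genes to -0.24 in splenic C26 and -0.26 in subcutaneous C26 and gave 3 proteasome genes lower in splenic C26 (Psmd5, Psmg2 and Psmd10) and 1 lower in subcutaneous C26 (Psmd9). Under it Psme3, Psme4 and Psmg4 did not pass in splenic C26, nor Psmb6, Psmb7 and Psmg4 in subcutaneous C26. Sign changes under it, none of them called, were Psmd9 in splenic C26 (-0.0666) and Psmd10 (-0.205) and Psmg1 (-0.0707) in subcutaneous C26. Psmd10 in subcutaneous C26 was also negative without control replicate 2 (-0.0187), control replicate 4 (-0.0227) or subcutaneous C26 replicate 2 (-0.0536), within a range of -0.0536 to 0.0972 over single omissions, and Psmg1 in splenic C26 was positive (0.117) without the 4 libraries holding other tissues' transcripts.

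Leaving out both intermediate tumour libraries gave 3 proteasome genes lower in splenic C26, 5 higher in splenic than in subcutaneous C26 and 1 with a larger splenic effect. For genes around the proteasome it gave 4 higher and 2 lower in splenic than in subcutaneous C26 and 1 with a smaller splenic effect, and for all genes 591 and 367 between routes and 167 and 90 for the difference of effects. Leaving out single libraries gave 0 to 2 proteasome genes lower in splenic C26 and 0 to 2 higher in splenic than in subcutaneous C26; for genes around the proteasome 0 to 2 higher between routes and 0 to 3 lower in subcutaneous C26. Over all genes it gave 0 to 215 higher and 0 to 92 lower between routes, 0 to 66 and 0 to 1 for the difference of effects, and 0 to 7 lower in sham than in control.

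Genes around the proteasome that were lower in splenic C26 numbered 3 with upper-quartile scaling, 0 at an adjusted p under 0.01 and 2 without the 4 libraries. In subcutaneous C26 they numbered 1 without the 10 most abundant genes, 0 at an adjusted p under 0.01, and 1 each with a 1.5-fold minimum, with only the groups compared and without the 4 libraries. Over all genes an adjusted p under 0.01 left 1700 lower in splenic C26, 1636 lower in subcutaneous C26 and 0 lower in sham than in control. DESeq2 called 143 higher and 20 lower between routes, 8 higher and 50 lower in sham than in control, and 84 and 2 for the difference of effects. In sham against control limma-trend called 7 lower and a fit of those groups 0. Without the 4 libraries 1 gene was higher and 1 lower between routes, and 1 higher and 46 lower in sham than in control. With the longest transcript as length the level per kb was 102 for Psma6, 89.0 for Psmd7, 1.72 for Psmg3 and 0.862 for Psmc3ip.

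No paired analysis was possible because the replicate numbers follow accession order and the labels tie no samples across groups.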
